A study of Mus musculus with 9 samples.

Results

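The genes described here are 9 that the edge of a healing skin wound is known to switch on for migration and matrix remodelling, Plau, Plaur, Itga5, Itgav, Tnc, Thbs1, Mmp9, Mmp13 and Fn1. Their probe sets were taken as those whose platform annotation gives one of these symbols and no other, which gave 9 of the 18193 genes tested and 21 of the 45037 probe sets in the table. They were measured in trunk epidermis of newborn mice labelled Alox12b-KO (4 arrays) and of newborn mice labelled wildtype, strain 129S6 (5 arrays), on Affymetrix Mouse Genome U430 2.0 arrays. Alox12b encodes 12R-lipoxygenase, an enzyme of the epidermal lipid barrier whose loss causes ichthyosis. All pups were offspring of heterozygous parents, and the labels give a strain for wildtype only. The knockout is labelled by gene alone, with no allele or deleted exon named, and the samples of each group are labelled biological replicates. Levels are the authors' log2 values, and with so few arrays the precision is limited. P-values set the difference between the groups against the spread between these arrays within a group. The test used, limma, draws that spread for each feature toward a value shared over all features.

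At a skin wound, keratinocytes at the margin loosen from the basement membrane and crawl over a provisional matrix. The urokinase Plau, held on the cell surface by its receptor Plaur, turns plasminogen into plasmin, which dissolves fibrin and activates matrix metalloproteinases. The integrin chains encoded by Itga5 and Itgav let the cell grip fibronectin and vitronectin. Fn1, Tnc and Thbs1 encode fibronectin, tenascin-C and thrombospondin, matrix proteins that dermal fibroblasts also make. Mmp9 and Mmp13 encode a gelatinase and a collagenase that cut the matrix ahead of the cells.

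The sheets read as epidermis in both groups. A list of 9 measured keratinocyte markers such as Krt5, Krt14, Krt1 and Krt10 had a mean log2 level of 10.75 to 11.66 on the knockout arrays and 10.93 to 11.62 on the wildtype arrays. The summed linear level of this list was 54217 to 64288 in knockout and 62407 to 66147 in wildtype. Knockout arrays 3 and 4, at 54217 and 54908, lay below every wildtype array in that sum. Single markers varied more than the list mean. Krt2 read 8.75 on knockout array 1 and 7.81 on wildtype array 2, against 3.39 to 4.62 on the other arrays. Krt5 and Krt14 were lowest on wildtype array 5, at 7.47 and 7.36. Array medians over all probe sets ran from 3.16 to 3.31 in knockout and from 3.14 to 3.22 in wildtype. Alox12b itself averaged 11.13 ± 0.33 (SD, n = 4) in knockout and 10.91 ± 0.29 (SD, n = 5) in wildtype, so its probe set does not check the labels. Xist, the RNA of the inactive X chromosome, read 9.99 to 10.20 on the knockout arrays and 10.95 on wildtype array 4, against 3.23 to 4.32 on the other wildtype arrays. Sex therefore overlapped almost completely with genotype, and any fit below with the Xist level as a covariate rests mainly on wildtype array 4 for its comparison.

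None of the 9 genes passed the test between knockout and wildtype. With the brightest probe set standing for each gene and limma adjusted over all 18193 genes, 0 of 9 had an adjusted p under 0.05, where 1.24% of all genes did. At an unadjusted p under 0.05 there was 1 member, Plaur, where 17.8% of all genes lay under that value. When each probe set was tested by itself, 0 of 21 passed, where 1.11% of all probe sets did, and 3 of 21 had an unadjusted p under 0.05, where 16.3% of all probe sets did. Of the 9 gene differences 6 were positive, with a median of 0.07 on the log2 scale, against 0.02 over all genes tested. The count of member genes past the threshold was 0 in each of the 24 settings run, although the number of genes called in all ranged from 9 to 1644 over the same settings. A filter at the median level left 3 of the 9 genes to test.

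Most of these probe sets were dim. Of the 21, 10 lay below the median of every array on all 9 arrays, and 4 lay above it on all 9. These 4 were 1452784_at for Itgav, 1426642_at for Fn1, 1416342_at for Tnc and 1450377_at for Thbs1. The mean of this Thbs1 probe set over all arrays, 3.87, was close to the 3.73 of Plaur 1452521_a_at. Detection calls were not used here and background differs between probe sets, so a difference at a dim probe set can understate a change. For Plau, Plaur, Itga5, Mmp9 and Mmp13, no probe set lay above the median of every array.

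**Figure D1:**
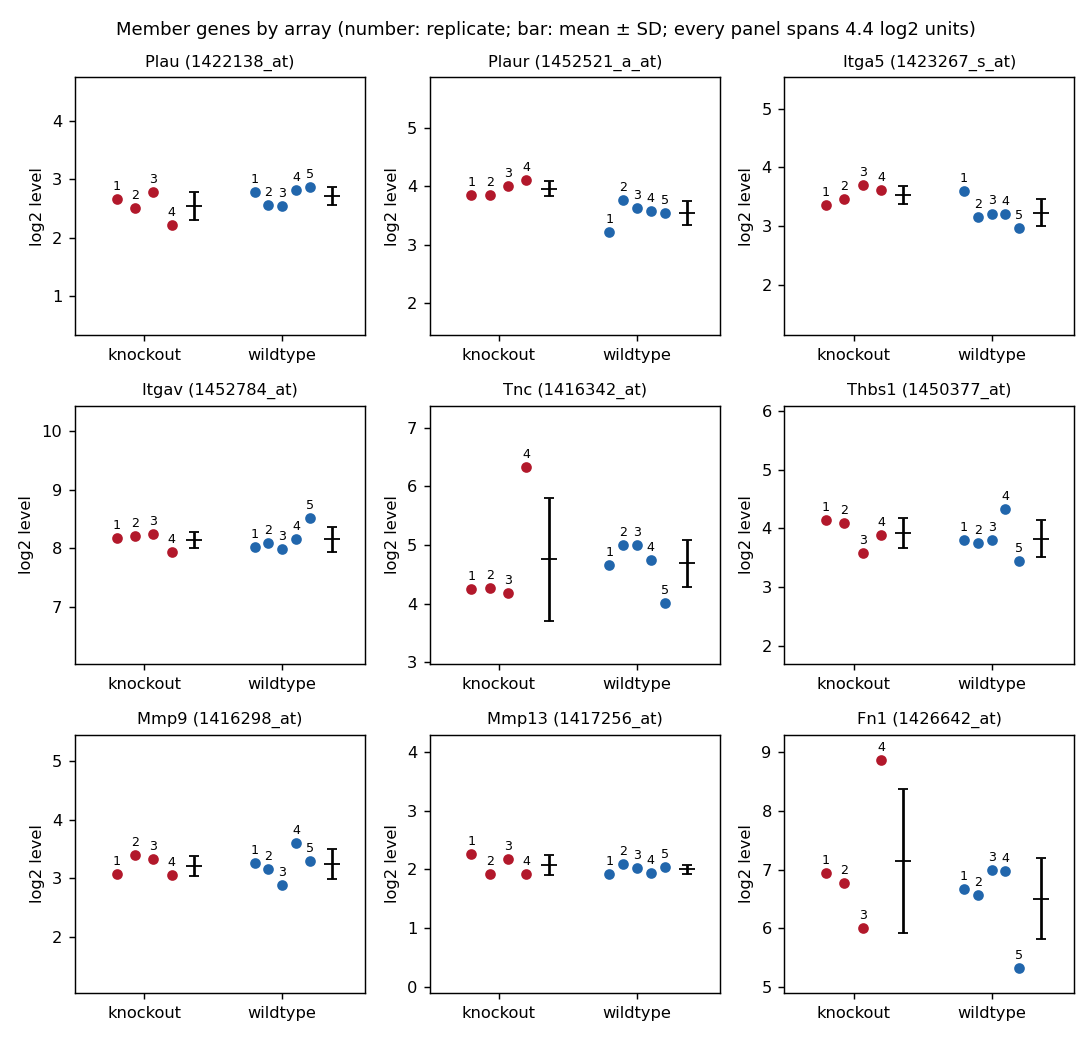
Log2 level (vertical axis) of the brightest probe set of each of the 9 genes on the 4 knockout arrays (red) and the 5 wildtype arrays (blue), with the replicate number beside each point and the mean ± SD as a black bar. Only in the Plaur panel do the groups not overlap, and knockout array 4 stands far above the other arrays for Tnc and Fn1.

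Plaur, the urokinase receptor, had the lowest adjusted p of the 9. Its only probe set, 1452521_a_at, read 3.84, 3.86, 4.01 and 4.11 in knockout, against 3.21, 3.76, 3.63, 3.58 and 3.55 in wildtype. Every knockout array lay above every wildtype array, which held for 3.14% of all genes in that direction and for 8.28% in either direction. The log2 difference was 0.41, a 1.33-fold higher level with a 95% interval of 1.09 to 1.62 that is not adjusted for the number of genes. The limma adjusted p was 0.159, so Plaur did not pass. Over the settings run, the difference ran from 0.33 to 0.46 and the adjusted p from 0.120 to 0.747. The highest p came with the Xist level as a covariate, where the difference was 0.40.

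Plau, the protease that binds this receptor, did not pass either. Probe set 1422138_at read 2.67, 2.50, 2.78 and 2.22 in knockout, against 2.78, 2.57, 2.54, 2.82 and 2.86 in wildtype, and the groups overlapped. Its log2 difference, -0.17, had an interval from 0.72-fold to 1.10-fold and a limma adjusted p of 0.535. Without knockout array 4, the lowest of the 9, it was -0.063. The second probe set, 1422139_at, averaged 2.55 ± 0.27 (SD, n = 4) in knockout and 2.55 ± 0.54 (SD, n = 5) in wildtype, with 1 high value of 3.52 on wildtype array 5. Both lay near the bottom of the scale in both groups.

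The upstream sequences of Plaur and Mmp13 are shown because they alone, among the members with an entry, hold a consensus site of AP-1, the Fos and Jun dimer that drives many wound-edge genes. RefSeq promoters in build GRCm38.p6 were present for 5 of the 9 members. The 250 bases before each start were searched for TGANTCA, which reads the same on both strands, and matches are in capitals. The Plaur site starts 69 bases before the start and the Mmp13 site 35 bases before it. Of 32851 promoters searched in this way, 6.75% held the motif, and a match describes letters only.
Plaur chr7:24462233-24462482, plus strand: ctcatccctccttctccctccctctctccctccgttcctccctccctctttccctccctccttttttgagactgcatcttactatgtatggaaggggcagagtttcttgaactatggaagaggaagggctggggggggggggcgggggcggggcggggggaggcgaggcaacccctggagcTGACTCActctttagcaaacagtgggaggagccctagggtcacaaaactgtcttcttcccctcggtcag
Mmp13 chr9:7272264-7272513, plus strand: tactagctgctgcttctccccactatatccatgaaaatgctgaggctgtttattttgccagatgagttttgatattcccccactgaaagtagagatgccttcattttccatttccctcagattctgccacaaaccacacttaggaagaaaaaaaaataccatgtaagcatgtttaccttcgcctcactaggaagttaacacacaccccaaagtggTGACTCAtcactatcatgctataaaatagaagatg

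On the same arrays, 4 of 7 genes of the Fos and Jun family rose and 0 fell, beside 0.511% of all genes that rose. This family was chosen with its values already known, and no alternative settings are reported for it here. Sex overlapped almost completely with genotype on these arrays, so for these genes the 2 cannot be told apart. With the Xist covariate 9 genes were called in all, against 226 as reported. Junb read 9.46 to 9.95 in knockout and 7.06 to 7.79 in wildtype, a 4.53-fold rise with a limma adjusted p of 0.000273. Fosb rose 7.85-fold and Jun 2.42-fold, with limma adjusted p values of 0.00132 and 0.00295, and Fos rose 2.58-fold, with 0.0343. Fosl1, Jund and Fosl2 did not pass, with log2 differences of 2.88, 0.55 and 0.02 and limma adjusted p values of 0.0607, 0.243 and 0.954. No link between the motif, this family and the levels of the members was tested. Mmp13, the collagenase gene, read at the bottom of the scale in both groups, below the median of every array. Its only probe set, 1417256_at, read 2.26, 1.92, 2.18 and 1.92 in knockout, against 1.92, 2.09, 2.02, 1.93 and 2.03 in wildtype. The groups overlapped, the log2 difference was 0.07 and the limma adjusted p was 0.759, with an interval from 0.89-fold to 1.25-fold. With each array left out in turn, the Mmp13 difference ran from 0.010 without knockout array 1 to 0.13 without knockout array 2.

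Mmp9, the gelatinase gene, had a pair of probe sets that did not give the same picture. The brighter, 1416298_at, read 3.06, 3.39, 3.33 and 3.06 in knockout, against 3.25, 3.16, 2.88, 3.60 and 3.30 in wildtype. These groups overlapped, differing by -0.03 on the log2 scale (limma adjusted p, 0.939). The dimmer, 1448291_at, read 2.79, 2.92, 2.79 and 3.50 in knockout, against 2.68, 2.64, 2.69, 2.41 and 2.73 in wildtype. Here every knockout array lay above every wildtype array, as for 2.82% of all probe sets in that direction and 7.18% in either direction. The difference of 0.37 on the log2 scale had a limma adjusted p of 0.282 over all probe sets, and it was 0.20 without knockout array 4, the highest of the arrays. With the mean of both probe sets the Mmp9 difference was 0.17.

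Itgav, the alpha-v chain, was the member with a bright and steady probe set. 1452784_at read 8.18, 8.20, 8.24 and 7.94 in knockout, against 8.03, 8.10, 7.98, 8.16 and 8.51 in wildtype. The groups overlapped and their means were 8.14 ± 0.14 (SD, n = 4) in knockout and 8.15 ± 0.21 (SD, n = 5) in wildtype. At -0.01 on the log2 scale, the difference had a limma adjusted p of 0.971. Its interval ran from 0.81-fold to 1.22-fold and is not adjusted for the number of genes. The fit behind it had genotype as the only term, while sex overlapped almost completely with genotype. The other 4 Itgav probe sets had means over all arrays of 2.16 to 3.19, and their differences lay between -0.01 and 0.09.

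Itga5, the alpha-5 chain of the fibronectin receptor, was higher in knockout on average without passing. 1423267_s_at, a probe set whose suffix marks it as able to hybridise to more than 1 transcript, read 3.36, 3.46, 3.71 and 3.61 in knockout. In wildtype it read 3.59, 3.15, 3.21, 3.20 and 2.97, so wildtype array 1 lay within the knockout range and the other wildtype arrays lay below it. Knockout exceeded wildtype by 0.31 on the log2 scale, or 1.24-fold with an interval of 0.998 to 1.53, and the limma adjusted p was 0.286. The next brightest, 1423268_at, differed by 0.21 with a limma adjusted p of 0.414 over all probe sets. The remaining pair, 1458996_at and 1457561_at, differed by 0.10 and -0.03. With the mean of all 4 probe sets the Itga5 difference was 0.15.

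**Figure D2:**
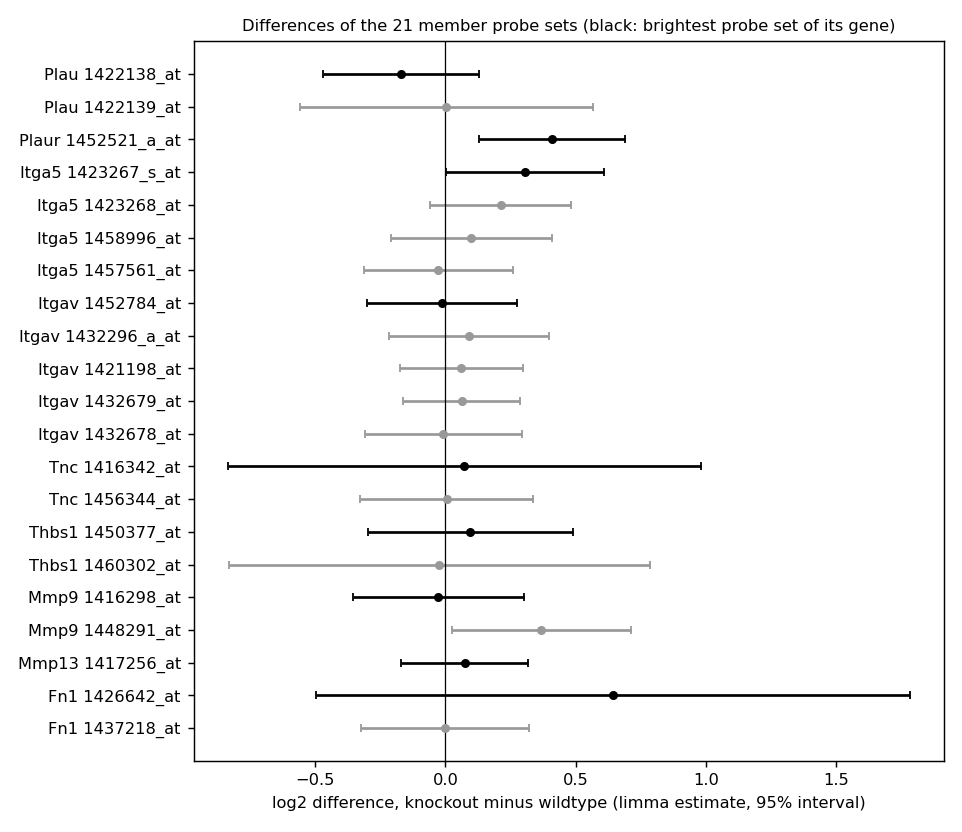
Log2 difference, knockout minus wildtype (horizontal axis), with limma's 95% interval for each of the 21 probe sets, fitted over all probe sets of the table. Black marks the brightest probe set of each gene. The intervals of Plaur 1452521_a_at, Itga5 1423267_s_at and Mmp9 1448291_at leave out 0 before any adjustment, and the widest intervals belong to Fn1 1426642_at, Tnc 1416342_at and Thbs1 1460302_at.

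The matrix genes varied more between arrays of a group than the groups differed. Fn1, read by 1426642_at, stood at 6.95, 6.77, 6.00 and 8.87 in knockout, against 6.67, 6.57, 6.99, 6.97 and 5.32 in wildtype. Knockout array 4 was the highest of all 9 arrays and wildtype array 5 the lowest, and the other 7 arrays lay between 6.00 and 6.99. The group means were 7.15 ± 1.22 (SD, n = 4) in knockout and 6.50 ± 0.69 (SD, n = 5) in wildtype. They differed by 0.64 on the log2 scale, with an interval from 0.70-fold to 3.48-fold and a limma adjusted p of 0.535. Without knockout array 4 the difference was 0.07, and without wildtype array 5 it was 0.35. The second probe set, 1437218_at, was dim and averaged 2.46 ± 0.08 (SD, n = 4) in knockout and 2.46 ± 0.28 (SD, n = 5) in wildtype.

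Tnc, the gene of the wound matrix protein tenascin-C, had the same single high array. 1416342_at read 4.25, 4.26, 4.18 and 6.33 in knockout, against 4.66, 5.00, 5.00, 4.74 and 4.01 in wildtype. Knockout arrays 1, 2 and 3 lay between 4.18 and 4.26, below 4 of the 5 wildtype arrays, while knockout array 4 lay above all of them. As a log2 difference this came to 0.07, at a limma adjusted p of 0.941. Without knockout array 4 it turned to -0.45, with a limma adjusted p of 0.395, and without wildtype array 5 to -0.10. With knockout array 4 and wildtype array 5 both left out, a choice made after the data had been seen, it was -0.62 and the limma adjusted p was 0.0602. The dim probe set 1456344_at differed by 0.00420.

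Thbs1, the thrombospondin gene, showed no separation at either probe set. 1450377_at read 4.14, 4.09, 3.58 and 3.88 in knockout, against 3.81, 3.76, 3.80, 4.33 and 3.44 in wildtype, which is 0.10 on the log2 scale (limma adjusted p of 0.807). 1460302_at read 3.45, 3.13, 2.39 and 4.14 in knockout, against 2.93, 3.60, 3.21, 4.17 and 2.58 in wildtype, a log2 difference of -0.02. At the second of these, knockout array 4 and wildtype array 4 stood highest and knockout array 3 and wildtype array 5 lowest. Another probe set lists Thbs1 together with another gene and was left out.

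Fibroblast markers, like Fn1, were highest on knockout array 4 and lowest on wildtype array 5. The mean levels of the smooth muscle, neutrophil, platelet and melanocyte lists had both extremes on the same arrays. Tnc also had its highest and lowest values there, but Thbs1 1450377_at was highest on wildtype array 4. The list of 10 fibroblast markers, among them Col1a1, Col3a1, Dcn and Lum, had a mean log2 level of 6.57, 6.50, 5.08 and 8.37 in knockout, against 6.13, 6.17, 7.08, 6.73 and 4.96 in wildtype. Its summed linear level was 544 to 8841 in knockout and 495 to 3214 in wildtype, where the highest knockout value other than that of array 4 was 2210. All 10 markers had a positive difference, 0 passed in limma and 0 had an unadjusted p under 0.05, and none is listed at 0. The 8 smooth muscle markers had a mean log2 level of 5.46 on knockout array 4, 3.39 to 3.54 on the other knockout arrays and 3.21 to 3.60 in wildtype. With the fibroblast list mean as a covariate, Fn1 differed by 0.28 and Tnc by -0.18, with limma adjusted p values of 0.379 and 0.731. In such bulk sheets, fewer cells of a type and less RNA per cell cannot be told apart.

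**Figure D3:**
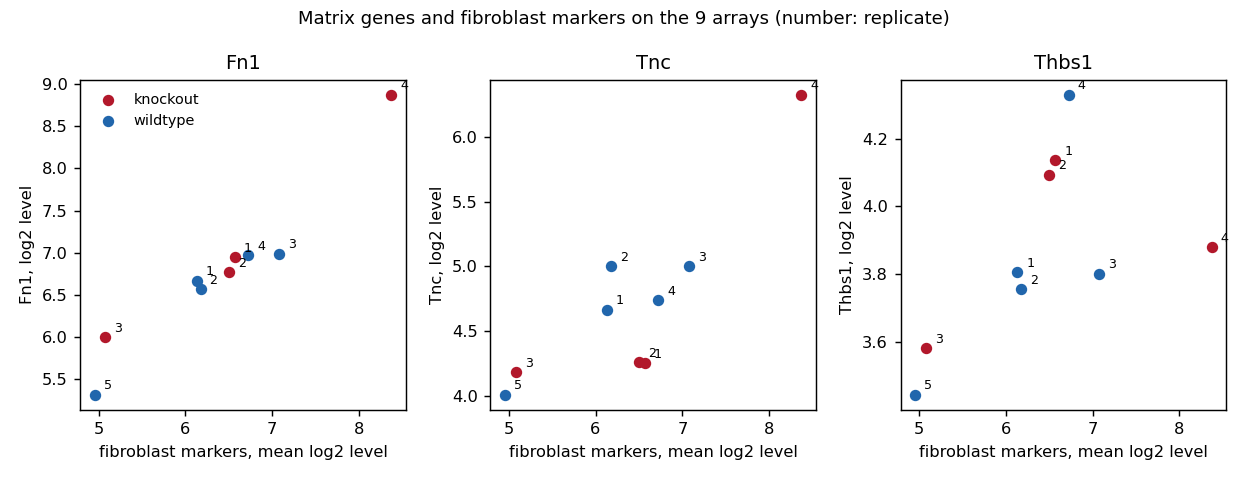
Log2 level of Fn1, Tnc and Thbs1 (vertical axes) against the mean log2 level of the 10 fibroblast markers (horizontal axes) on the 4 knockout arrays (red) and 5 wildtype arrays (blue), with replicate numbers. Knockout array 4 is at the top right for Fn1 and Tnc, and wildtype array 5 and knockout array 3 are at the low end of the marker level, while knockout arrays 1 and 2 lie below wildtype arrays 1, 2 and 4 for Tnc at similar marker levels.

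Other marker lists were compared in the same way. Endothelial markers had a mean log2 level of 2.99 to 3.40 in knockout and 3.02 to 3.32 in wildtype, and neutrophil markers 3.29 to 3.78 in knockout and 2.92 to 3.73 in wildtype. Platelet and megakaryocyte markers, which bear on Thbs1 because platelets store its protein, had 4.77 to 5.88 in knockout and 4.25 to 5.56 in wildtype, and knockout array 4 was again the highest array. Langerhans cell and macrophage markers, which bear on Mmp9 and Plaur, had 4.98 to 5.33 in knockout and 4.17 to 6.08 in wildtype. Melanocyte markers had 4.56 to 5.35 in knockout and 3.48 to 4.88 in wildtype, adipocyte markers 4.11 to 4.81 in knockout and 4.16 to 7.72 in wildtype, and skeletal muscle markers 4.43 to 6.07 in knockout and 4.03 to 7.22 in wildtype. Wildtype array 5 was the lowest of all arrays for the neutrophil, platelet, Langerhans cell and macrophage, melanocyte and skeletal muscle lists. Knockout array 4 was the highest for the endothelial, neutrophil, platelet and melanocyte lists. The part of these cells in the member values was not tested. No marker of these lists passed in limma. At an unadjusted limma p under 0.05 there were 2 of 4 adipocyte markers and 1 of 7 melanocyte markers, where 17.8% of all genes lay under that value. The median differences of these 2 lists were -1.64 and 0.42 on the log2 scale.

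Profiles over the 9 arrays were compared with those of 8888 other named genes, each gene centred on its own mean. Nearest to Fn1 were the collagen genes Col6a2 and Col14a1, at root mean square differences of 0.21 and 0.26 log2 units. Nearest to Tnc were Masp1, at 0.21, and Gpc3, at 0.26. No gene lay within 0.2 of either. The flatter members had many near profiles, from 80 genes within 0.2 for Thbs1 and 150 for Plaur to 1406 for Itgav. The nearest were Ppp1r3f and Prcp for Plaur, Rab7 and Cul2 for Plau, Ptprn and Kif17 for Itga5, and Arfgef1 and Eml4 for Itgav. They were Mdfi and Galnt10 for Thbs1, Aup1 and Klc3 for Mmp9, and Spred1 and Adipor2 for Mmp13.

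Around the members, 5 lists of pathway partners held 120 measured genes, of which 2 rose and 1 fell, beside 0.511% and 0.731% of all genes. The median difference of the 120 was 0.03, against 0.02 over all genes, and 26 had an unadjusted p under 0.05, beside 17.8% of all genes. In the plasminogen list of 12 genes, 0 rose and 1 fell, with a median of 0.19, and 3 had an unadjusted limma p under 0.05. The gene that fell was Anxa2, annexin A2, a surface scaffold for plasminogen and its activator. 1419091_a_at read 10.66, 10.41, 10.17 and 10.02 in knockout, against 11.02, 11.16, 11.28, 11.25 and 11.29 in wildtype, which is -0.88 on the log2 scale (limma adjusted p of 0.0182). Every knockout array was lower than every wildtype array, as for 5.14% of all genes. With the mean and the median of the 3 Anxa2 probe sets it was -0.32 and -0.17, neither of which passed (limma adjusted p, 0.117 and 0.477). With the Xist covariate it was -0.92, with a limma adjusted p of 0.384. Without knockout array 2, wildtype array 2 or wildtype array 4 it was -0.91, -0.89 and -0.87, with limma adjusted p values of 0.0575, 0.0576 and 0.0524.

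In the list of 26 metalloproteinases, inhibitors and sheddases 1 rose and 0 fell, with a median of 0.17. An unadjusted limma p under 0.05 was found for 9 of the 26, beside 17.8% of all genes. Timp2, an inhibitor that also helps activate pro-Mmp2, was the one that rose. 1460287_at read 8.84, 8.53, 9.28 and 9.22 in knockout, against 7.96, 7.75, 8.05, 7.97 and 7.32 in wildtype, a 2.23-fold rise with a limma adjusted p of 0.0206 and no overlap. The other 5 Timp2 probe sets differed by 0.18 to 0.77 and none passed, and with the mean of all 6 the difference was 0.51 with a limma adjusted p of 0.122. With the median it was 0.38, with a limma adjusted p of 0.258. With the Xist covariate Timp2 differed by 0.97 and did not pass, with a limma adjusted p of 0.526. Without knockout array 4, wildtype array 1, wildtype array 2 or wildtype array 4 it differed by 1.07, 1.19, 1.14 and 1.20, with limma adjusted p values of 0.0687, 0.0532, 0.0672 and 0.0507.

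In the list of 32 matrix and matricellular genes 1 rose and 0 fell, with a median of 0.13. An unadjusted limma p under 0.05 was found for 4 of the 32, beside 17.8% of all genes. Ccn1, a secreted ligand of several integrins, was the one that rose. 1416039_x_at read 8.14, 8.57, 5.96 and 8.26 in knockout, against 4.74, 5.17, 5.76, 5.24 and 4.07 in wildtype, a 6.68-fold rise with a limma adjusted p of 0.0321. Knockout array 3 lay just above the highest wildtype array and far below the other knockout arrays. This probe set's suffix marks probes that can cross-hybridise. The other 3 Ccn1 probe sets differed by 1.64 to 1.96 on the log2 scale. Of them 1438133_a_at passed over all probe sets, with a limma adjusted p of 0.0359, and 1457823_at, which stands for the gene when such suffixes are left out, differed by 1.64 and did not pass, with a limma adjusted p of 0.147 over genes. Ccn1 did not pass in 12 of the 23 alternative settings, among them the fits without wildtype arrays 1, 2 and 4 and without knockout arrays 1, 2 and 4, each in turn.

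None of the 22 integrin and focal adhesion genes and none of the 28 migration and actin genes passed, with medians of -0.03 and -0.12, and 3 and 7 of them had an unadjusted p under 0.05 in limma. The largest difference in the adhesion list was in Sdc4, a syndecan that acts with the fibronectin receptor, which read 8.61 to 9.17 in knockout, against 9.30 to 9.99 in wildtype, which is -0.70 on the log2 scale (limma adjusted p of 0.0896). Itga6, a hemidesmosome chain, came next at -0.62, with a limma adjusted p of 0.231. In the migration list Fosl1, an AP-1 subunit gene of migrating keratinocytes, read 8.94, 8.85, 6.24 and 7.33 in knockout, against 5.49, 4.85, 6.04, 5.18 and 3.22 in wildtype. Its difference of 2.88 did not pass, with a limma adjusted p of 0.0607, and Runx1 differed by 0.75 with a limma adjusted p of 0.0719.

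**Figure D4:**
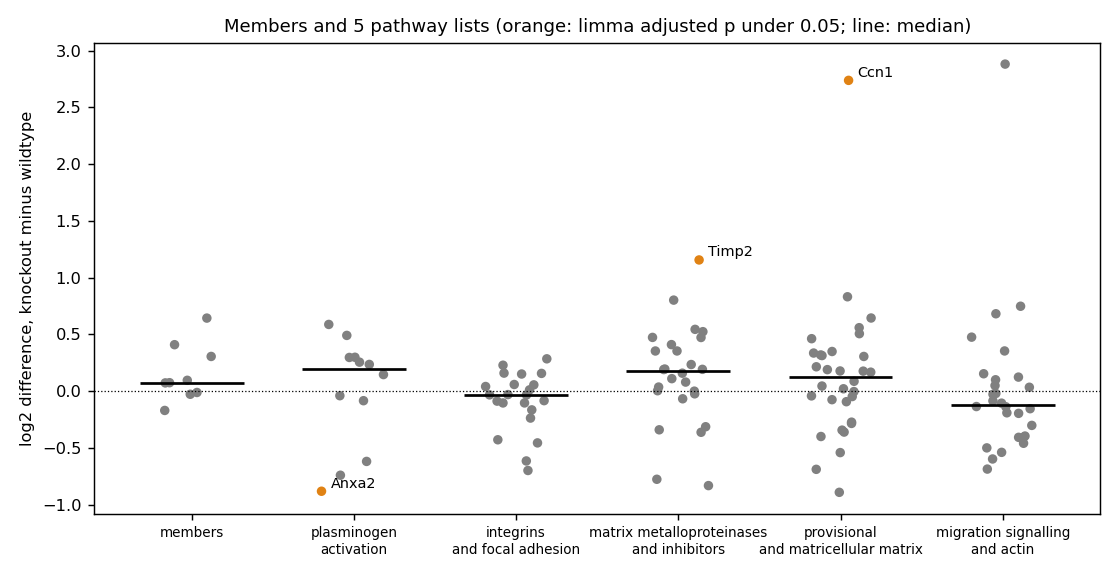
Log2 difference, knockout minus wildtype (vertical axis), of the 9 members and of each gene in the 5 pathway lists, with a line at each median. Orange points passed a limma adjusted p of 0.05 over all 18193 genes: Anxa2, Timp2 and Ccn1. The members lie between -0.17 and 0.64 and none is orange.

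Fn1 and Tnc were the members whose size or sign rested most on single arrays. Leaving out each array in turn gave 0.07 to 1.03 for Fn1 and -0.45 to 0.26 for Tnc, against 0.33 to 0.46 for Plaur and 0.24 to 0.40 for Itga5. Over all settings the sign was kept for Plau, Plaur, Itga5 and Mmp13 and turned in at least 1 setting for Itgav, Tnc, Thbs1, Mmp9 and Fn1.

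**Figure D5:**
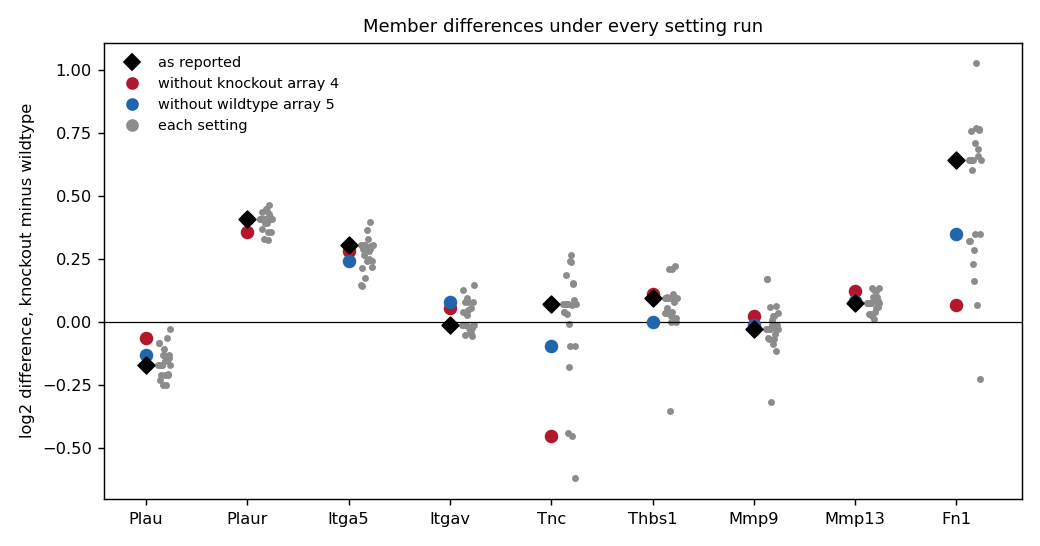
Log2 difference, knockout minus wildtype (vertical axis), of each member gene as reported (black), without knockout array 4 (red), without wildtype array 5 (blue) and under each setting that gave a value (grey). Plaur and Itga5 stay above 0 in all of them, and Tnc and Fn1 spread most.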

How the data were processed

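Biotin-labelled cRNA from epidermal sheets, lifted off in hot buffered saline, was hybridised to 9 arrays, per the labels' protocols. The authors deposited 1 table of log2 values, and the tool listed is affy, per the submitters' processing notes. For background, normalization and probe summary, settings were not stated in the labels, and values were used as deposited. Groups came from sample titles. At most 124 values were identical between any 2 arrays of a group.

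The platform annotation named 1 gene for 34945 probe sets and several for 932, and 9160 were not listed. Symbols were updated through gene numbers for 34741. The probe set with the highest mean stood for its gene. limma 3.58.1 under R 4.3.3 (eBayes on lmFit, genotype as the only term, Benjamini-Hochberg over all features, threshold 0.05) was fitted to 18193 genes and to 45037 probe sets, and tested on simulated data. Members, lists and markers were chosen with earlier results of these data known. Named were all members, called pathway genes, the 2 largest differences of lists with none, and the 2 nearest profiles per member among genes at or above the median level, without provisional symbols. Alternatives were 22 planned settings (probe set summaries, filter, scaling, variance model, array weights, covariates, replicate block, threshold, each array left out) and 1 added later. Pathway genes not measured under a single symbol were not analysed here. Promoter sequences are RefSeq's.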

Additional observations from a re-analysis of the deposited data

Results flagged for a closer look

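In 5 of 42 groups of arrays, 1 array lay far from the others of its group by Dixon's test, which chance alone does for about 1 in 20 groups. Tnc 1416342_at read 6.33 on knockout array 4, against 4.18 to 4.26 on the other knockout arrays. Fn1 1426642_at read 5.32 on wildtype array 5, against 6.57 to 6.99 on the other wildtype arrays. Fibroblast markers were highest on knockout array 4 and lowest on wildtype array 5, as were the smooth muscle, neutrophil, platelet and melanocyte lists. The other 3 flagged groups were at dim probe sets. Plau 1422139_at read 3.52 on wildtype array 5 and 2.21 to 2.41 on the other wildtype arrays, Mmp9 1448291_at read 2.41 on wildtype array 4 and 2.64 to 2.73 on the others, and Itga5 1457561_at read 1.87 on wildtype array 5 and 2.24 to 2.31 on the others.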

How the results depend on the processing

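No member gene and no member probe set passed in any setting. The number of genes called in all was 226 as reported. It was 1644 with array weights, 9 with the Xist covariate, which rests mainly on wildtype array 4, 119 with the replicate block, 571 at an adjusted p of 0.10 and 62 to 281 with each array left out. It was 62 and 87 without knockout arrays 2 and 4, and 83, 71 and 89 without wildtype arrays 1, 2 and 4. The number of probe sets called was 498 as reported, 2511 with array weights, 18 with the Xist covariate, 1219 at an adjusted p of 0.10 and 142 to 626 with each array left out, lowest without knockout array 2. Under quantile normalization 276 probe sets were higher and 393 lower, against 153 and 345 as deposited. Pathway genes called numbered 3 as reported, 0 with the mean or the median of a gene's probe sets, 5 with quantile normalization, 16 with array weights, 0 with the Xist covariate, 1 with the replicate block, 7 at an adjusted p of 0.10 and 0 to 4 with each array left out (1 without knockout array 2, knockout array 4 or wildtype array 1, 0 without wildtype array 2 or 4). Residual correlations of same-numbered arrays were -0.18, -0.07, -0.18 and 0.20. Of the 4 knockout arrays, 1 was closest to the wildtype array of its own number. So few values cannot decide whether replicate numbers pair the samples. The replicate block also takes wildtype array 5 out of the comparison. With the block Anxa2 was -0.86 and Ccn1 2.51, each with a limma adjusted p of 0.0962. The cause of these changes in counts was not tested.

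Signs of member differences, none of them past the threshold, turned as follows. With knockout array 4 and wildtype array 5 left out, Fn1 was -0.23, Tnc -0.62, Itgav 0.14, Mmp9 0.036, Tnc 1456344_at -0.17 and Itga5 1458996_at -0.064. With array weights Tnc was -0.44, Itgav 0.095, Mmp9 0.059, Tnc 1456344_at -0.19 and Itga5 1458996_at -0.048. With the fibroblast covariate Tnc was -0.18, Itgav 0.045, Mmp9 0.0060 and Tnc 1456344_at -0.047. With the Xist covariate Tnc was -0.0086, Itgav 0.025, Thbs1 -0.35, Itgav 1432296_a_at -0.063, Itgav 1432679_at -0.037 and Itga5 1458996_at -0.086. With the replicate block Tnc was -0.097, Itgav 0.078, Thbs1 -0.00036 and Tnc 1456344_at -0.045. With quantile normalization Itgav was 0.079, Itgav 1421198_at -0.0016, Plau 1422139_at -0.051 and Tnc 1456344_at -0.057, and with median centring these last 2 were -0.038 each. With the mean and the median of a gene's probe sets Itgav was 0.039 and 0.13 and Mmp9 0.17 in both.
With each array left out, the ranges that crossed 0 were -0.055 to 0.078 for Itgav, -0.45 to 0.26 for Tnc, -0.00036 to 0.22 for Thbs1 and -0.12 to 0.064 for Mmp9. For dim probe sets they were -0.11 to 0.076 for Fn1 1437218_at, -0.11 to 0.042 for Itga5 1457561_at, -0.016 to 0.14 for Itgav 1432296_a_at, -0.11 to 0.062 for Itgav 1432678_at, -0.11 to 0.25 for Plau 1422139_at, -0.31 to 0.27 for Thbs1 1460302_at and -0.12 to 0.084 for Tnc 1456344_at.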
